A study of Homo sapiens with 19 samples.

Results

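A set of 10 long noncoding RNA genes outside the sex chromosomes was followed through every library of the series by their splice junctions. The genes were MALAT1, NEAT1, PVT1, TUG1, OIP5-AS1, NORAD, LINC-ROR, CYTOR, MIR17HG and DANCR. They were chosen by name, not by a measured value, and they held 795 of the 1286533 junctions in the files. Annotated junction reads were found for 9 of the 10 genes, against 22760 genes in all and 4709 noncoding genes. NORAD is annotated as 1 exon, so a junction count cannot measure its level.

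RNA was sequenced after ribosomal RNA depletion in 19 libraries of 3 human lines: A375, a melanoma line, HEK293, an embryonic kidney line, and HUES66, an embryonic stem cell line. A375 gave 1 library each of total, nuclear and cytoplasmic RNA, the fractions having been parted with a low-salt Triton buffer and a wash of the nuclear pellet. HEK293 and HUES66 gave 1 wild-type library each. The wild-type HUES66 library carries the controls' name in its description and no doxycycline in its labels. The other 14 libraries were HUES66 cells with 1 ug/ml doxycycline, all groups alike: controls labelled WT (3 libraries: 24 hr, 48 hr and 96 hr), RBFOX2 total knockdown (3, at the same times), and the N-short and N-long isoform knockdowns (4 each, with 2 at 24 hr). The series title names Cas13d, an RNA-guided ribonuclease, as the knockdown agent. The labels do not say whether the cells were 1 clone, nor whether replicates came from separate cultures. The fits hold a term for the library set, which is the time and, at 24 hr, the replicate. Their p-values therefore measure the spread left between libraries of the same set, which may be technical, and not the spread between sets. The 24 hr libraries came from 2 library series, 1 of which held no control and the other no total knockdown, while the 48 hr and 96 hr sets shared another series. A library series is here the prefix of the library names, whose meaning is not stated.

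Junction reads per library, without spike-ins, were 8412005 in A375 total, 6499183 in nuclear and 22344622 in cytoplasmic RNA, 9605334 in HEK293, 27937149 in wild-type HUES66 and 9622841 to 14625040 in the treated libraries. Levels are given as CPM, the reads on a gene's own annotated junctions scaled to a library of 1000000 junction reads. CPM are not per exon or per length, so they compare libraries for a gene and not genes with each other. RNA left unspliced gives no junction reads and is not counted. The GENCODE 29 annotation holds transcripts of MALAT1 and NEAT1 that read through introns counted here. The levels of these genes are therefore levels of spliced RNA and not of all their RNA. HUES66 carried its stem cell markers, with a summed level of 3754 CPM for the pluripotency list in the wild-type library, 9.87 CPM in A375 and 47.6 CPM in HEK293. A375 carried SOX10 at 100 CPM and MITF at 39.0 CPM, while PMEL was at 0.476 CPM and MLANA and TYR had no reads. SOX10 and MITF were at 0 and 8.22 CPM in HEK293 and at 1.32 and 0.823 in wild-type HUES66. PMEL was higher in wild-type HUES66 (47.9), and PAX3 was higher in HEK293 (16.0) than in A375 (11.3). The summed HEK293 marker list was at 66.4 CPM in HEK293, 36.6 in A375 total RNA and 9.34 in wild-type HUES66, with WT1 higher in A375 (5.83) than in HEK293 (3.02), so that this list parts HEK293 from A375 poorly. RBFOX2 itself fell by 0.82 on the log2 scale in the total knockdown (edgeR quasi-likelihood test, adjusted p = 1.12e-08) and by 0.57 in the N-long knockdown (adjusted p = 3.43e-05). Its fitted log2 change in the N-short knockdown was -0.06 (adjusted p = 0.998), in a count over the whole gene that does not tell its isoforms apart.

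Long noncoding RNAs are capped and in many cases spliced like messenger RNAs but are not translated into a known protein, and many act from the nucleus. MALAT1 is held in nuclear speckles and NEAT1 is the scaffold of paraspeckles; the 3′ ends of both are made by the tRNA-processing enzyme RNase P. NORAD, a cytoplasmic RNA, binds the Pumilio proteins, and MIR17HG is the primary transcript of the miR-17-92 microRNAs. PVT1 lies next to MYC, LINC-ROR is known from pluripotent stem cells, and TUG1, OIP5-AS1, CYTOR and DANCR are widely expressed RNAs with described cytoplasmic pools.

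By GENCODE 29 on GRCh38 the 2 RNAs of nuclear bodies and the microRNA host lie as follows. MALAT1 (ENSG00000251562.8) is at chr11:65497688-65506516 on the plus strand. NEAT1 (ENSG00000245532.8) is its neighbour at chr11:65422774-65445540, plus strand. MIR17HG (ENSG00000215417.12) is at chr13:91347820-91354579, plus strand. Among the others, TUG1 (ENSG00000253352.9) is at chr22:30969245-30979395, plus strand. OIP5-AS1 (ENSG00000247556.6) is at chr15:41283990-41309737, plus strand, and CYTOR (ENSG00000222041.11) at chr2:87454781-87636740, plus strand. DANCR (ENSG00000226950.6) is at chr4:52712404-52720351, plus strand. LINC-ROR (ENSG00000258609.3) is at chr18:57054558-57072119 on the minus strand, and NORAD (ENSG00000260032.1) at chr20:36045622-36050960 on the minus strand.

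The junctions that name an isoform are shown first, as sequence across the join, because the shares given further on count reads on these joins. The last 20 bases of the upstream exon are in lower case and the first 20 of the downstream exon in capitals, from GENCODE 29 transcripts. TUG1 has 1 donor with 3 acceptors, so the left side is common to the 3 and the right side tells them apart:
TUG1 chr22:30971780-30972047: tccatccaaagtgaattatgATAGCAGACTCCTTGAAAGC
TUG1 chr22:30971780-30972854: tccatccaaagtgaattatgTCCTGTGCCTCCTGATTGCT
TUG1 chr22:30971780-30972923: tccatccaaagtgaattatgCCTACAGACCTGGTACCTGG
CYTOR has a donor with a near and a far acceptor, and a second donor that joins the near acceptor:
CYTOR chr2:87455646-87521206: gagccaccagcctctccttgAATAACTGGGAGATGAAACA
CYTOR chr2:87455646-87583257: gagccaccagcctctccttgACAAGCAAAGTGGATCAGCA
CYTOR chr2:87480424-87521206: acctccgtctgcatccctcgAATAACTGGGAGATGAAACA
Each interval is the intron, from its first to its last base. The join to the near acceptor was in transcripts of no other gene, the join to the far acceptor was also in AC133644.3, which overlaps CYTOR, and the join of the second donor was also in the paralog MIR4435-2HG. Reads on the last 2 may therefore be split between genes and are uncertain for CYTOR.

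MIR17HG holds 6 microRNA hairpins between chr13:91350605 and chr13:91351391, which give 12 mature microRNAs in RefSeq (GRCh38.p14). The 6 arms usually counted as the main products are shown with the seed, bases 2 to 8, in capitals, since the seeds sort them into families:
hsa-miR-17-5p: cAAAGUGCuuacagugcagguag
hsa-miR-20a-5p: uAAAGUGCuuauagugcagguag
hsa-miR-18a-5p: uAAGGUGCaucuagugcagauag
hsa-miR-19a-3p: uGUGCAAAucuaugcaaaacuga
hsa-miR-19b-3p: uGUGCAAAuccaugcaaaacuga
hsa-miR-92a-3p: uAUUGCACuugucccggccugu
hsa-miR-17-5p and hsa-miR-20a-5p share the seed AAAGUGC, and hsa-miR-19a-3p and hsa-miR-19b-3p share GUGCAAA. All 6 hairpins lie inside the last annotated intron of MIR17HG, chr13:91350227-91353932. That intron had 3 reads over the 19 libraries, all in treated HUES66 cells, against 684 reads for the first intron (chr13:91347960-91349697) and 641 for the next (chr13:91349771-91350155). Another 11 reads joined its donor to chr13:91350558, an unannotated acceptor upstream of the first hairpin. The level of MIR17HG is therefore a level of RNA spliced upstream of the cluster, and mature microRNAs were not measured.

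In A375, 4 members were nuclear, 3 cytoplasmic and 1 neither, by a rule that calls a CPM ratio past 2-fold where the 2 fractions hold 20 or more reads of the gene. Over all 12759 such genes, 22.7% were called nuclear and 19.3% cytoplasmic. Among the 631 noncoding genes the shares were 19% and 33.6%. The median log2 ratio of nuclear to cytoplasmic CPM was 1.23 over the 8 members and -0.112 over all genes. The same mass of RNA went into each library, so a ratio compares shares of the RNA in each fraction and not amounts per cell. There was 1 library per fraction and so no test: the intervals are 95% exact intervals for counting error only. Known cytoplasmic messages gave log2 ratios of -3.38 to -0.98 (6 of 6 below 0), and the 5 measured RNAs of a nuclear list gave -0.01 to 2.93.

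MALAT1 had 443 spliced reads in nuclear, 412 in total and 52 in cytoplasmic RNA, or 68.2, 49.0 and 2.33 CPM, with unspliced RNA not counted. Its nuclear level was 29.3-fold the cytoplasmic level (interval 21.9 to 39.8), the highest ratio of 94 autosomal noncoding genes whose fractions summed to 200 reads or more. The next 2 were GARS-DT, with 208 nuclear and 76 cytoplasmic reads, and AC108010.1, with 290 and 159. The MALAT1 ratio rested in part on 1 annotated junction, chr11:65500399-65500536, which had 171 nuclear reads and 0 cytoplasmic ones: without it the ratio was 18.0 (13.3 to 24.7).

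MIR17HG, the microRNA host, was the second most nuclear member, with 5.08 CPM in nuclear, 2.62 in total and 0.448 in cytoplasmic RNA. The ratio of 11.3 had a wide interval (5.46 to 25.8), since it came from 33 and 10 reads. NEAT1, the paraspeckle scaffold, had 6.92 CPM in nuclear, 4.99 in total and 1.83 in cytoplasmic RNA, a ratio of 3.77 (2.42 to 5.91). Its spliced reads come from the 5′ part of the gene and amount to 45, 42 and 41. PVT1 (ENSG00000249859.9, chr8:127794533-128101253, plus strand), the neighbour of MYC, had 36.2 CPM in nuclear, 24.7 in total and 9.76 in cytoplasmic RNA, a ratio of 3.71 (3.07 to 4.48). The intervals of NEAT1 and PVT1 overlapped almost wholly, and MALAT1 alone of the 4 stood clear of both.

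TUG1 was the member called neither way, at 23.7 CPM in nuclear, 21.6 in total and 16.1 in cytoplasmic RNA, a nuclear to cytoplasmic ratio of 1.47 (1.21 to 1.79). Its interval lies above 1 and below the 2-fold rule.

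The cytoplasmic members were OIP5-AS1, DANCR and CYTOR. OIP5-AS1 had 11.9 CPM in cytoplasmic, 7.13 in total and 2.62 in nuclear RNA, a cytoplasmic to nuclear ratio of 4.57 (2.80 to 7.96). That level counts only the junctions OIP5-AS1 does not share: 2 introns that it shares with AC087721.2 held 7976 of its reads over all libraries, and with them the ratio was 2.69 (2.13 to 3.45). DANCR had 19 CPM in cytoplasmic, 8.44 in total and 4.62 in nuclear RNA, a ratio of 4.11 (2.84 to 6.17). CYTOR had 23.4, 12.5 and 8.46 CPM in the same order, a ratio of 2.77 (2.09 to 3.72), which was 2.08 (1.64 to 2.66) with its shared junctions. The 3 intervals overlap, so their order is not set by these counts. For all 8 called or measured members the level in total RNA lay between those of the fractions. LINC-ROR, with 0 nuclear, 2 cytoplasmic and 0 total reads, was under the read minimum.

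**Figure D1:**
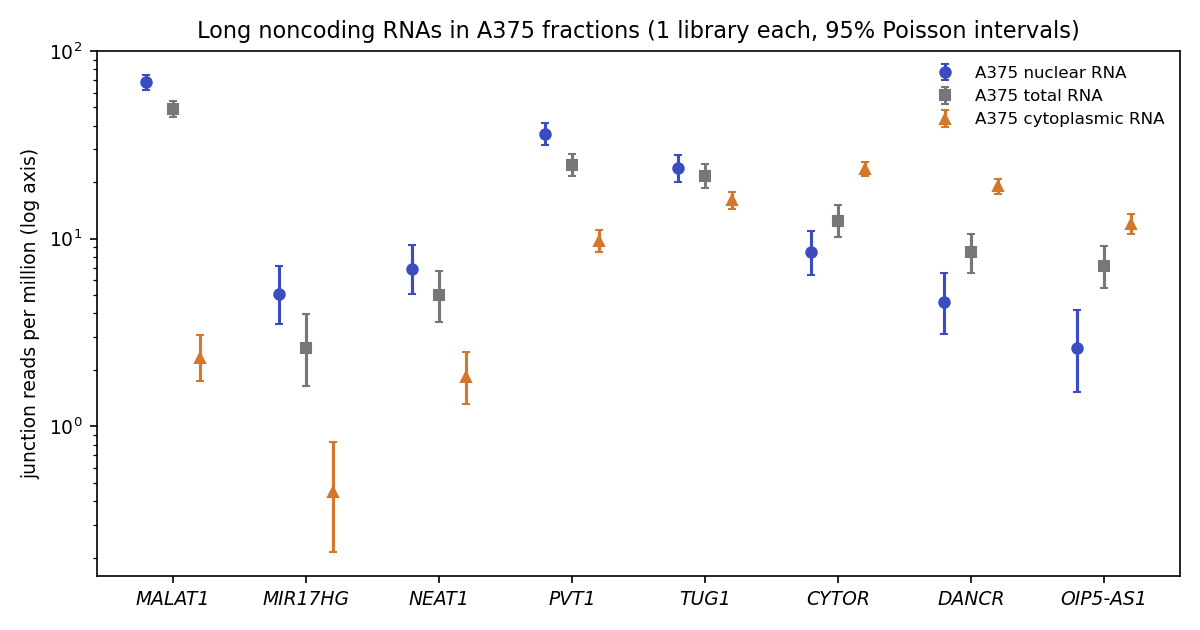
Level in CPM (log axis) of 8 members in A375 nuclear (circles), total (squares) and cytoplasmic RNA (triangles), 1 library each, with 95% Poisson intervals that cover counting error only. MALAT1 falls from 68.2 in nuclear to 2.33 in cytoplasmic RNA, while OIP5-AS1 rises from 2.62 to 11.9, and the total lies between the fractions for each of the 8.

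Single junctions did not all follow their gene. In PVT1 the nuclear to cytoplasmic ratio became smaller along the gene over the 6 annotated junctions with at least 20 reads in the fractions together: 10.0 at the first intron (chr8:127794735-127890588), 9.24 at chr8:127890999-127939507 and 5.16 at chr8:127939677-127989161. Further 3′ it was 3.06 at chr8:128009719-128010317, 2.91 at chr8:128010445-128070159 and 2.55 at the last intron, chr8:128096655-128100979. The intervals of the first (4.91 to 22.0) and the last (1.35 to 4.71) of these do not overlap. Thinner 5′ junctions did not all share the high ratio: chr8:127796009-127890588 had 9 nuclear and 8 cytoplasmic reads, chr8:127796072-127890588 had 10 and 9, and chr8:127890999-127932464 had 0 and 9.

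In MALAT1, the intron near the 3′ end with most reads (chr11:65504207-65504325; 128 nuclear and 19 cytoplasmic reads) had a ratio of 23.2 (14.2 to 39.7). The downstream intron chr11:65504596-65504819, with 14 and 22 reads, had a ratio of only 2.19 (1.04 to 4.47). Introns chr11:65500399-65500536 (171 nuclear reads) and chr11:65504359-65504657 (35) had 0 cytoplasmic reads and were at least 196-fold and at least 40.1-fold higher in nuclear RNA, against a floor of 3 reads. NEAT1 had ratios of 4.93 (2.81 to 8.80) at chr11:65423384-65423626 and 1.50 (0.523 to 3.86) at chr11:65423658-65423962, with overlapping intervals.

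Among the cytoplasmic members, CYTOR had junctions whose counting intervals did not overlap, whereas the intervals within OIP5-AS1 and within DANCR overlapped. Such overlap does not show that the ratios are equal, and the difference between junctions was not tested. CYTOR was 2.74-fold (1.98 to 3.88) higher in cytoplasmic RNA at the join to its near acceptor, and 1.88-fold (1.08 to 3.20) higher in nuclear RNA at the join to its far acceptor. The second CYTOR donor, whose join is also in MIR4435-2HG, was 6.5-fold (2.13 to 32.3) higher in cytoplasmic RNA, from 3 and 67 reads. OIP5-AS1 was higher in cytoplasmic RNA by 4.28-fold (2.62 to 7.46) at its own intron chr15:41286101-41298040. At the 2 shared introns it was higher by 2.47-fold (1.59 to 4.04) and 2.00-fold (1.42 to 2.87), with overlapping intervals. DANCR gave 4.60-fold (1.89 to 14.5), 3.97-fold (2.6 to 6.4) and 1.75-fold (0.509 to 9.25, from 3 and 18 reads) in order from the 5′ end. These intervals overlap too, and the last DANCR intron had 0 nuclear and 25 cytoplasmic reads. In TUG1 the 5 junctions ran from 0.998-fold to 2.71-fold nuclear, with overlapping intervals.

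**Figure D2:**
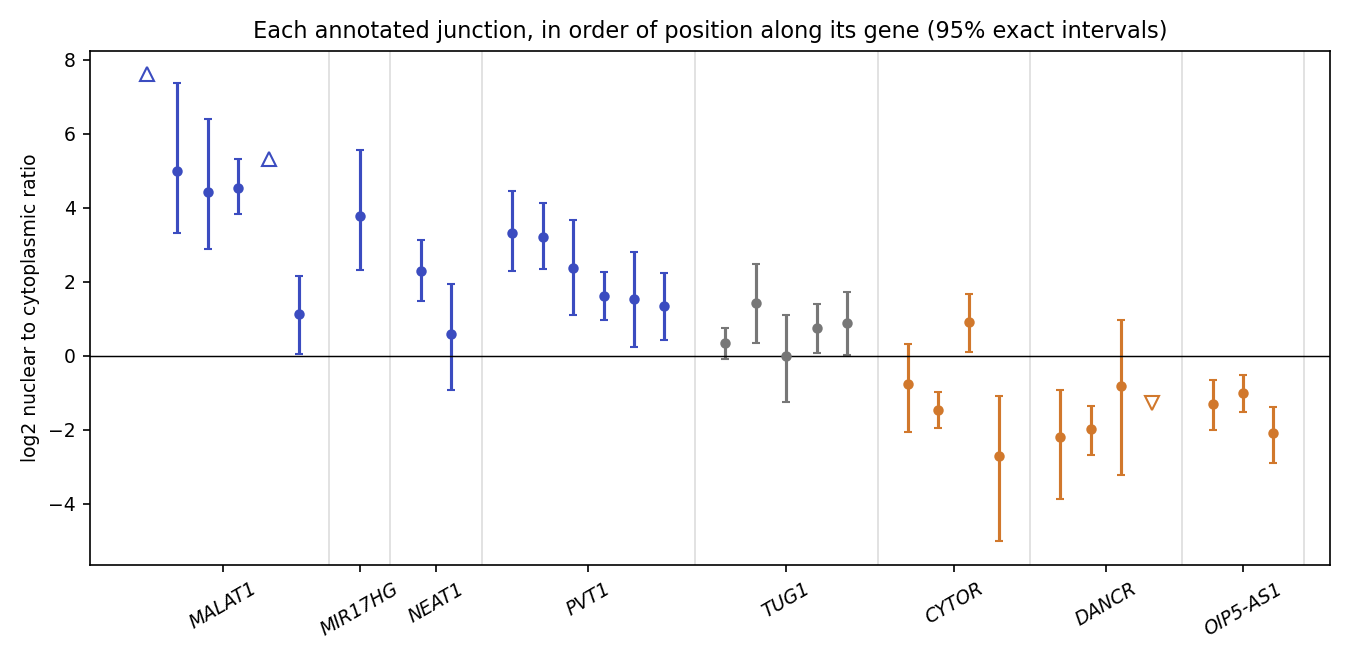
Log2 ratio of nuclear to cytoplasmic CPM for each annotated junction of 8 members with enough reads, ordered by position within its gene, with 95% exact intervals for counting error; colours mark nuclear (blue), uncalled (grey) and cytoplasmic (orange) genes. Open triangles are bounds where 1 fraction had 0 reads, and the 6 PVT1 junctions run from 10.0-fold down to 2.55-fold (3.32 to 1.35 on the axis).

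Shares of the reads at a splice site leave the level of the gene out. A junction was called where its share of at least 20 reads per fraction differed by at least 10 percentage points and the 95% Wilson intervals did not overlap. This held for 13 of 110 shares over the members, all different junctions, against a background of 1.18% of 146333 shares. The 13 were 8 in MALAT1, 3 in PVT1 and 2 in CYTOR; DANCR, NEAT1, OIP5-AS1 and TUG1 had 0. The count was 4 with at least 50 reads at the site, and 4 with annotated junctions alone. The background above belongs to the first rule and does not apply to these 2 counts.

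From the first CYTOR donor, the near acceptor shown above took 54.7% of 75 nuclear reads and 79.4% of 486 cytoplasmic reads. The far acceptor, also in AC133644.3, took 30.7% and 8.64%. In PVT1, the donor at chr8:127890999 sent 82.7% of 52 nuclear reads but 37.2% of 43 cytoplasmic reads to chr8:127939507. Acceptors at chr8:127932027 (unannotated) and chr8:127932464 took 23.3% and 20.9% of the cytoplasmic reads and 0 of the nuclear ones.

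In MALAT1, the donor at chr11:65502394 sent 43.8% of 64 nuclear and 5.0% of 60 cytoplasmic reads to chr11:65502636, while 40.6% and 71.7% went to the unannotated chr11:65503116. At the acceptor chr11:65504325, the main donor gave 98.5% of 130 nuclear and 67.9% of 28 cytoplasmic reads. Unannotated donors at chr11:65503906 and chr11:65503932 gave 10.7% and 14.3% of the cytoplasmic reads, from 3 and 4 reads. At the acceptor chr11:65504819, 81.8% of nuclear reads came from chr11:65504359, a join with 63 reads in the nuclear library and 0 in every other, A375 total RNA included. The cytoplasmic reads there came from chr11:65504596 (81.5%, against 18.2% nuclear) and chr11:65504584 (18.5%, against 0).

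Several joins in MALAT1 and NORAD were read in 1 or 2 libraries alone, so their sequence is shown beside the ordinary intron chr11:65504207-65504325. Each line gives 24 bases around 1 end of the intron, read from the GENCODE 29 transcript of its gene, with the first or last 2 bases of the intron in capitals:
MALAT1 chr11:65504207-65504325, 5′ end: ccttctgttctaGTgagtgtatga
MALAT1 chr11:65504207-65504325, 3′ end: ttttttttacAGacttcacagaga
MALAT1 chr11:65499463-65499624, 5′ end: taaaagttgtagGTgattaaaata
MALAT1 chr11:65499463-65499624, 3′ end: tgggagtggtAGgatgaaacaatt
MALAT1 chr11:65499513-65499694, 5′ end: attaaaccgaagGTgattaaaaga
MALAT1 chr11:65499513-65499694, 3′ end: gggaaggcgaAGaaaagaatagag
MALAT1 chr11:65500399-65500536, 5′ end: cagctgacccagGTgctacacaga
MALAT1 chr11:65500399-65500536, 3′ end: aaaagagtccAGgagccagtgcga
NORAD chr20:36050044-36050379, 5′ end: ggggcctggaagGTgagcgaagtc
NORAD chr20:36050044-36050379, 3′ end: tttgtttaaaAGaaatcatagaaa
NORAD chr20:36050526-36050715, 5′ end: cggtgactaatgGCggccgtggcg
NORAD chr20:36050526-36050715, 3′ end: cggcccgggaAGgcggcctaggga
The last of these has GC at its 5′ end and the others GT, and all 6 end in AG. The bases repeated at the 2 ends of an intron numbered 0 in the ordinary intron, 5 in each of the other 3 MALAT1 introns, and 3 and 7 in the NORAD introns. Annotated MALAT1 introns read in more libraries also had repeats: 9 bases at chr11:65503906-65506259 (18 libraries), 6 at chr11:65505663-65506385 (11) and 5 at chr11:65505020-65506385 (13). The remaining annotated MALAT1 introns examined had 0 to 3. A repeat of 5 therefore does not set the joins of few libraries apart. Such a repeat leaves the exact place of a join open to the aligner.

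The MALAT1 intron chr11:65499463-65499624 had 345 reads in A375 total, 376 in nuclear and 0 in the other 17 libraries. Intron chr11:65499513-65499694 had 676 reads in nuclear RNA alone, and chr11:65505020-65505590 had 78 there alone. The annotated chr11:65500399-65500536 had 145 total and 171 nuclear reads and 0 elsewhere. NORAD, which has no annotated intron, had 65 reads on chr20:36050044-36050379 in A375 cytoplasmic RNA alone and 24 on chr20:36050526-36050715 in wild-type HUES66 alone. OIP5-AS1 had 28 reads on chr15:41298665-41298798 in a single treated HUES66 library. Of all 203251 junctions with at least 20 reads, 0.520% had 90% or more of them in 1 library; of the members' 92, 6.52% did, 3 in MALAT1, 2 in NORAD and 1 in OIP5-AS1. The scaffold and spike-in names in the A375 files alone show that processing differed between A375 and the rest, and its part in these joins was not tested.

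Between lines, with 1 wild-type library each and no test, MALAT1, NEAT1 and CYTOR were higher in A375 than in HUES66, OIP5-AS1, DANCR and MIR17HG were higher in HUES66 than in A375, and PVT1 and TUG1 were within 2-fold in every pair. A375 total RNA and HEK293 differed past 2-fold in 3 of 8 measured members, near the background of 38.1% of genes. A375 and wild-type HUES66 differed in 6 of 8, against 45.1%, and HEK293 and HUES66 in 4 of 7, against 40.1%. With TMM scaling the log2 ratios of all genes shifted by 0.100 for A375 over HEK293, -0.105 for A375 over HUES66 and -0.205 for HEK293 over HUES66. The library series differed between the wild-type libraries compared, so line and series cannot be told apart in these pairs. HEK293 did share its series with the 24 hr set of treated HUES66 that held a control. In that set OIP5-AS1 was at 20.7 to 22.7 CPM, DANCR at 24.6 to 27.9, MIR17HG at 3.75 to 5.09 and CYTOR at 2.16 to 2.84. HEK293 had 6.66, 6.98, 0.937 and 7.39, the same directions as against wild-type HUES66. MALAT1 went the other way: HEK293, at 5.00 CPM, was above the set's 1.33 to 3.28 and below the wild type's 9.06. In such bulk RNA, fewer cells with an RNA and less RNA per cell cannot be told apart.

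Spliced MALAT1 RNA was at 49.0 CPM in A375, 5.00 in HEK293 and 9.06 in wild-type HUES66, with 1.15 to 10.2 over all 15 HUES66 libraries. A375 was 9.80-fold (7.26 to 13.5) above HEK293 and 5.41-fold (4.61 to 6.35) above wild-type HUES66. Without the junction chr11:65500399-65500536, which was read in A375 alone, these ratios were 6.35 and 3.50. NEAT1 was at 4.99 CPM in A375, 0.833 in HEK293 and 0 to 0.139 in HUES66, where 9 of the 14 treated libraries had 0 reads. The A375 to HUES66 ratio of 69.7 rests on 2 HUES66 reads (18.1 to 595), and A375 was 5.99-fold (2.78 to 14.8) above HEK293. CYTOR followed the same order: 12.5 CPM in A375, 7.39 in HEK293 and 2.16 to 3.72 over the 15 HUES66 libraries. It was 4.59-fold higher in A375 and 2.72-fold higher in HEK293 than in wild-type HUES66.

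OIP5-AS1 was at 7.13 CPM in A375, 6.66 in HEK293 and 18.1 to 29.7 in HUES66, so that both other lines lay below all 15 HUES66 libraries. Wild-type HUES66 was 3.12-fold above A375 and 3.34-fold above HEK293. DANCR showed the same order, at 8.44, 6.98 and 20.1 to 33.4 CPM, with wild-type HUES66 3.72-fold and 4.51-fold above the others. MIR17HG was at 2.62 CPM in A375, 0.937 in HEK293 and 2.66 to 9.36 in HUES66. Wild-type HUES66 was 2.66-fold above A375 and 7.41-fold above HEK293. A375 was 2.79-fold (1.24 to 6.89) above HEK293, from 22 and 9 reads.

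LINC-ROR, the RNA known from pluripotent cells, had 2 to 17 reads in each of the 15 HUES66 libraries (0.208 to 1.24 CPM). It had 0 reads in A375 total RNA and HEK293, which allows up to 0.357 and 0.312 CPM. Of its 131 annotated reads, 69 were on 1 intron, chr18:57070004-57071903, which also held both A375 cytoplasmic reads. The wild-type level was 0.430 CPM, from 12 reads, and counting error leaves no fold above 1 against either line (lower bounds 0.837 and 0.955). PVT1 (24.7 CPM in A375, 17.2 in HEK293, 13.2 to 25.4 in HUES66) and TUG1 (21.6, 30.5 and 26.6 to 34.5) stayed within 2-fold in each pair of lines. TUG1 in A375 lay below all HUES66 libraries.

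**Figure D3:**
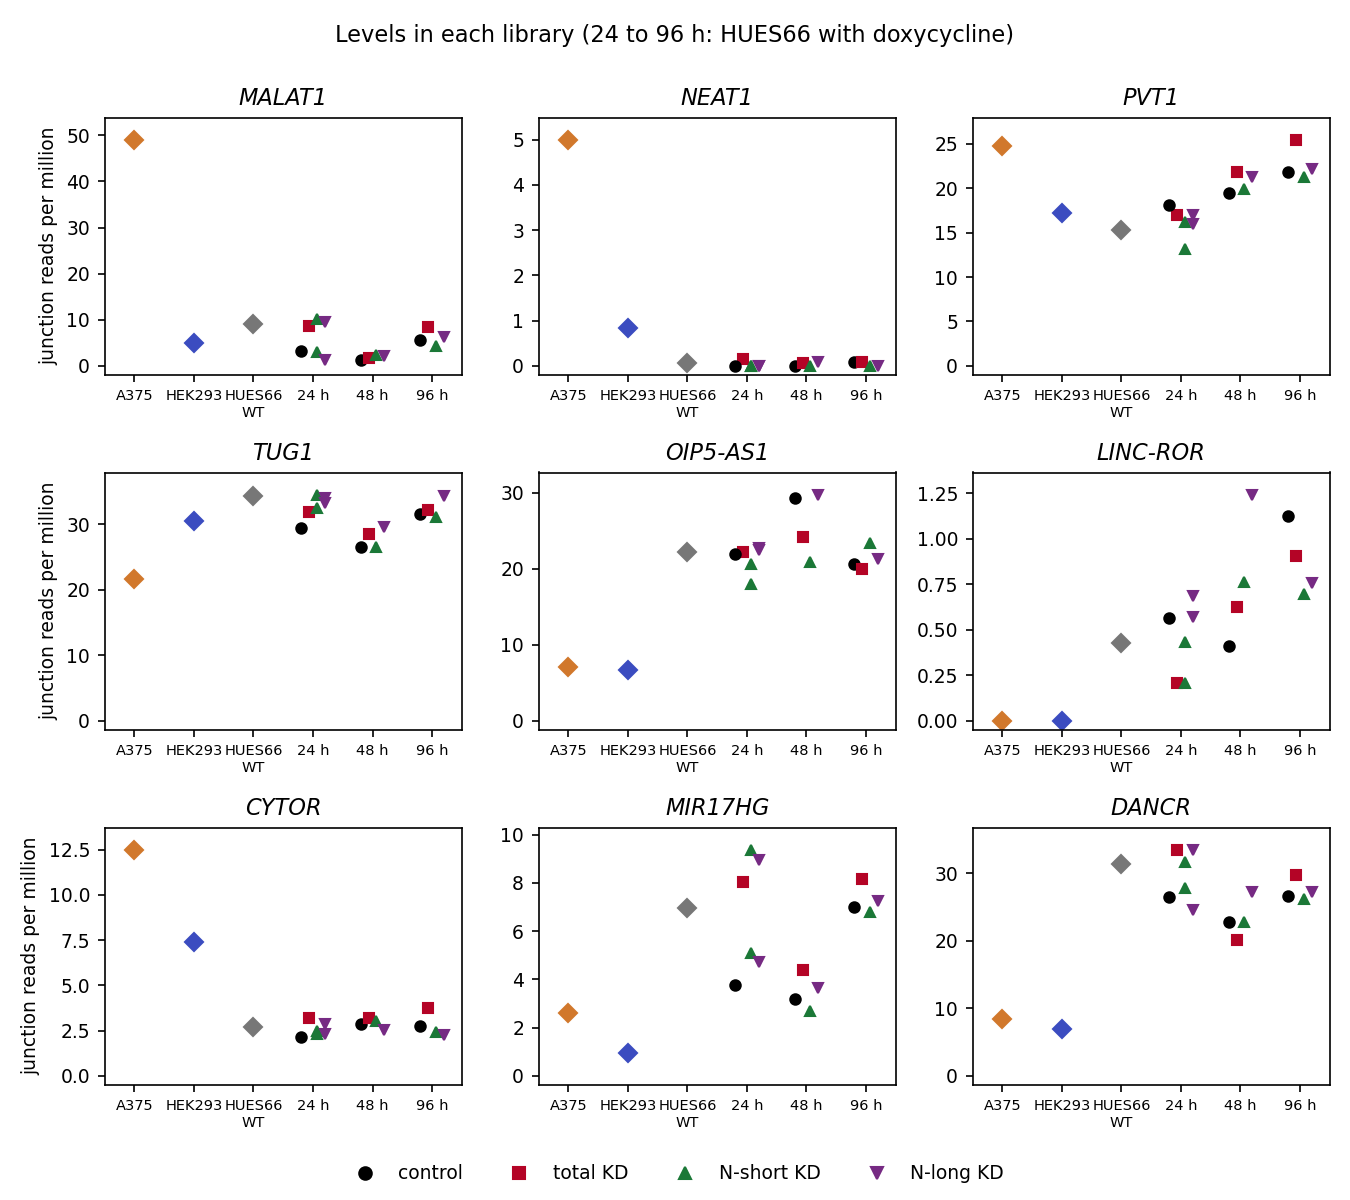
Level in CPM of 9 members in A375 total RNA, HEK293, wild-type HUES66 (diamonds) and the 14 doxycycline-treated HUES66 libraries by time, 1 marker per library, with knockdowns told apart by marker. MALAT1, NEAT1 and CYTOR are highest in A375 (49.0, 4.99 and 12.5), OIP5-AS1 and DANCR are above 18 in every HUES66 library and under 9 in the other lines, and the 24 hr markers of MALAT1 and MIR17HG fall into a high and a low set.

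Isoform shares between lines passed the same rule in PVT1, MALAT1 and CYTOR. The calls were 10 of 123 shares for A375 against HUES66 (background 1.98%), 3 of 105 for HEK293 against HUES66 (2.14%) and 2 of 85 for A375 against HEK293 (1.36%), the last being 1 junction counted at both of its ends. The last 2 counts, at 2.86% and 2.35% of the members' shares, are near the background. The PVT1 join chr8:127890999-127989161, which skips the exon ending at chr8:127939677, had 0 of 44 donor reads in A375 total RNA, 9 of 36 (25%) in HEK293 and 37 of 116 (31.9%) in wild-type HUES66. A count of 0 of 44 has a Wilson upper bound of 8.03%, but the join was read in both A375 fractions, with 8 of 52 (15.4%) in nuclear and 5 of 43 (11.6%) in cytoplasmic RNA. The join to the skipped exon at chr8:127939507 took 90.9% in A375 total RNA and 62.9% in wild-type HUES66. PVT1 reads from chr8:127989292 to chr8:127996560 made up 42.9% in HEK293 and 10.8% in HUES66.

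At the near CYTOR acceptor, the first donor gave 72.9% of the reads in HEK293 and 93.9% in HUES66, and a donor at chr2:87470305 gave 13.6% and 0. In MALAT1, all 32 reads from chr11:65504359 in A375 total RNA went to chr11:65504657, which took 45.5% of 44 reads in wild-type HUES66, where the unannotated chr11:65504942 took the other 54.5%. That unannotated join was read in 2 libraries alone, with 24 reads in wild-type HUES66 and 25 in the total knockdown at 48 hr, and 5 treated libraries had 5 to 13 reads to chr11:65504657 and 0 to it.

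The knockdown question was whether these RNAs change when RBFOX2, a splicing factor, or 1 of its N-terminal isoforms is lowered. None of the 8 tested members was called at adjusted p under 0.05 in any of the 4 knockdown contrasts, by edgeR over 13628 genes in the 14 treated libraries with the library set as a term. The background was 2.2% of genes for the total knockdown against control, 0% for N-short, 0.022% for N-long and 0.0147% for N-long against N-short, so 0 of 8 is near the background. For N-short, edgeR gave 537 genes at an unadjusted p under 0.05 and DESeq2 called 2. DESeq2 too called 0 members in each of the 4 contrasts. At an unadjusted p under 0.05 edgeR gave 0, 0, 0 and 1 members. The 1 was OIP5-AS1, with a log2 difference of 0.22 (SE 0.087; adjusted p = 0.913) for N-long over N-short.

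The members' fitted log2 changes ran from -0.34 to 0.35 in the total knockdown, -0.26 to 0.12 in N-short, -0.05 to 0.36 in N-long, and -0.07 to 0.62 in N-long against N-short. LINC-ROR, with 17 reads at most, had the widest SE in each. MALAT1 in the total knockdown was at 8.66, 1.74 and 8.36 CPM at 24, 48 and 96 hr, and its controls at 3.28, 1.15 and 5.63. The 24 hr total knockdown and control are of different library series, so only their 48 hr and 96 hr values pair within a set, for CYTOR too. With the set as a term, the fitted log2 change of MALAT1 was 0.18 (SE 0.26, edgeR adjusted p = 0.845), smaller than its SE. CYTOR in the total knockdown was at 3.19, 3.19 and 3.72 CPM against 2.16, 2.87 and 2.78 in the controls, a log2 change of 0.35 (SE 0.23, adjusted p = 0.572). The CYTOR change did not pass the test. NEAT1, with 0 to 2 reads per library, and NORAD were not tested.

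Of 28 member junctions tested, in 7 genes, 0 were called in each of the 4 knockdown contrasts, with 3, 3, 1 and 4 at an unadjusted p under 0.05. The background over 124164 junctions was 0.448%, 0.0113%, 0.0427% and 0.0298%. The authors' deposited tables of splicing events held 34 to 59 events of the members in each of 9 comparisons, and 0 of them had an adjusted p under 0.05 (lowest 0.194). Over all genes, 1 to 57 events passed per comparison, out of 45022 to 57221, so 0 is near the background.

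Few genes of the members' pathways were called in the knockdowns. Calls in these lists came from the total knockdown contrast, where 2.2% of all genes were called. There 1 of 17 paraspeckle proteins rose and 1 fell. HNRNPH3 rose by 0.19 on the log2 scale, and the gene that fell is not reported here. DNMT3B and TDGF1 of the pluripotency list rose by 0.15 and 0.17, and the cytoplasmic control message FTL by 0.20. The lists of RNA tail and decay factors, Pumilio and NORAD partners, miR-17-92 genes and neighbours had 0 calls.

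More members were called between times than in any knockdown contrast. At 96 hr against 48 hr, 5 of 8 members rose and 1 fell, where 29.3% of all genes rose and 29.7% fell. Each time was 1 library set of 4 (control and 3 knockdowns), both of the same library series, so time and set cannot be told apart. The p-values for time hold no spread between sets of the same time.

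MALAT1 had 1.15 CPM in the control, 1.74 in the total, 2.44 in the N-short and 2.12 in the N-long knockdown at 48 hr. At 96 hr it had 5.63, 8.36, 4.36 and 6.27. The groups did not overlap and the fitted change in spliced RNA was 3.41-fold (log2 1.77, SE 0.22, edgeR adjusted p = 2.24e-08), with 0.301% of genes at least as high. MIR17HG had 3.19, 4.37, 2.66 and 3.65 CPM at 48 hr and 6.98, 8.17, 6.81 and 7.25 at 96 hr, in the same order. It too rose without overlap, 2.18-fold (log2 1.12, SE 0.15, adjusted p = 7.64e-08), with 1.26% of genes at least as high.

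The 24 hr libraries covered a range as wide as that. MALAT1 was at 8.66, 10.2 and 9.44 CPM in the first 24 hr set (total, N-short and N-long) and at 3.28, 2.91 and 1.33 in the other (control, N-short and N-long). MIR17HG was at 8.03, 9.36 and 8.96 against 3.75, 5.09 and 4.73. In the N-short and N-long knockdowns, present in both sets, MALAT1 and MIR17HG were thus lower in the set that held the control, at the same labelled time. The wild-type library, of the same series as the first set, was at 9.06 and 6.94 CPM.

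TUG1 lay between 26.6 and 29.6 CPM at 48 hr and between 31.1 and 34.3 at 96 hr, without overlap, a rise of 0.27 on the log2 scale (SE 0.06, adjusted p = 0.000486). DANCR lay between 20.1 and 27.2 CPM and then between 26.2 and 29.8, with overlap, a rise of 0.30 (adjusted p = 0.00139, SE 0.08). PVT1 rose by 0.19 (SE 0.08, adjusted p = 0.0370) and OIP5-AS1 fell by 0.23 (SE 0.08, adjusted p = 0.0197), both with overlapping groups. These last 2 calls were lost under DESeq2, with adjusted p of 0.0968 and 0.0610, and without the library-set block, with 0.0845 and 0.0709. CYTOR (log2 -0.01, adjusted p = 0.983) and LINC-ROR (0.25, SE 0.38, adjusted p = 0.595) did not pass. The 3 members whose groups did not overlap were 3 of 9 with reads, against 48.7% of tested genes.

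**Figure D4:**
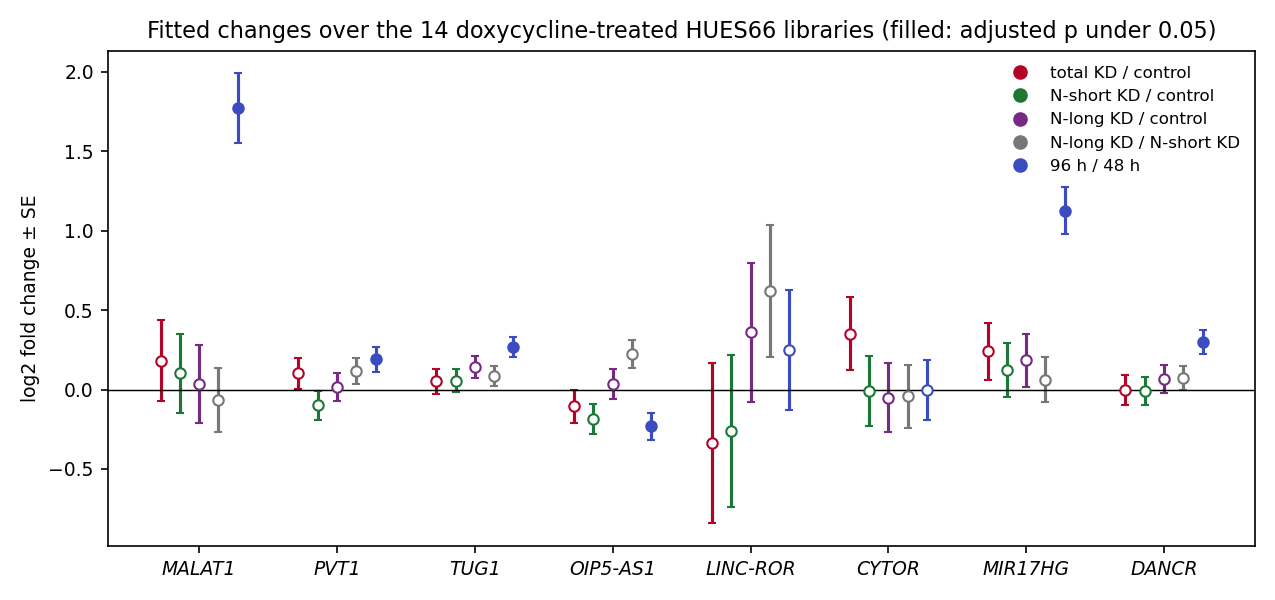
Fitted log2 fold changes with SE bars for 8 members in 5 contrasts over the 14 doxycycline-treated HUES66 libraries; filled points have an edgeR adjusted p under 0.05. All filled points belong to 96 hr against 48 hr, led by MALAT1 (1.77) and MIR17HG (1.12), and OIP5-AS1 (-0.23) is the filled point below 0.

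Single junctions of TUG1 and PVT1 changed in opposite directions between times. Of 28 member junctions, 11 rose and 4 fell, in 6 genes, against 32.3% of all junctions called in either direction. The 3 TUG1 joins shown above did not move together: chr22:30971780-30972047 rose by 1.34 on the log2 scale (SE 0.34, adjusted p = 0.00109) and chr22:30971780-30972854 by 0.32 (adjusted p = 0.00110), whereas chr22:30971780-30972923 fell by 0.56 (SE 0.20, adjusted p = 0.0200). As shares of the donor's annotated reads, the third acceptor took 14.4% to 22.8% in the 48 hr libraries and 7.88% to 11.7% at 96 hr. The first took 2.12% to 3.48% and then 4.95% to 8.37%. Neither pair of ranges overlapped, which held for 5 of 17 member shares (2 in TUG1 and 3 in PVT1), near the 26.5% of 13126 shares over all genes. The main acceptor took 74.5% to 82.6% and 82.5% to 87.1%, ranges that overlap narrowly. At 24 hr the third acceptor took 9.74% to 16.9% and the first 3.08% to 5.99%, over ranges that reach into those of both later times. Differences in share were not tested as such.

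In PVT1 the exon-skipping join chr8:127890999-127989161, not read in A375 total RNA, fell by 0.83 on the log2 scale (SE 0.23, adjusted p = 0.00270). Its share of the donor's annotated reads was 29.3% to 45.1% at 48 hr and 18.6% to 25.4% at 96 hr. The downstream PVT1 junction chr8:128009719-128010317 rose by 0.80 (adjusted p = 0.00409). Among the other genes, the 3 tested MALAT1 junctions rose by 1.69 to 2.44, both MIR17HG junctions by 1.10, and both DANCR junctions by 0.26 and 0.46. OIP5-AS1 fell at its own intron by 0.30 (adjusted p = 0.000768) and at the shared intron chr15:41284111-41285224 by 0.44.

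**Figure D5:**
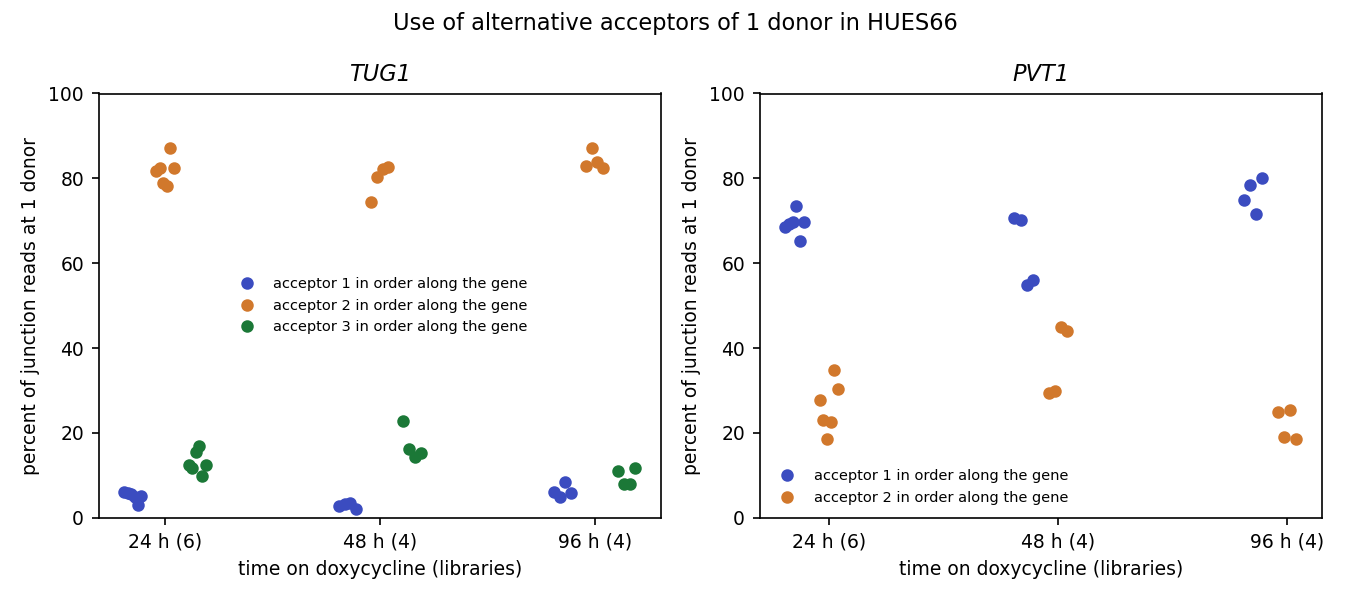
Percent of the annotated junction reads at 1 donor that went to each acceptor in TUG1 (3 acceptors) and PVT1 (2 acceptors), 1 point per doxycycline-treated HUES66 library at 24 h (6), 48 h (4) and 96 h (4). The third TUG1 acceptor falls from 14.4% to 22.8% at 48 h to 7.88% to 11.7% at 96 h, and the PVT1 exon-skipping acceptor from 29.3% to 45.1% to 18.6% to 25.4%.

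The members' pathways at 96 hr against 48 hr are given by count, beside a median log2 change of -0.01 over all genes. Of all genes 29.3% rose and 29.7% fell. Of 7 factors of the MALAT1 and NEAT1 tail and of RNA decay, 7 rose, with a median of 0.36: RPP30, a subunit of RNase P, by 0.56, ELAC2, a tRNA 3′ processing nuclease, by 0.36, and METTL16, an RNA methyltransferase reported to bind the MALAT1 triple helix, by 0.19. Of 17 paraspeckle proteins 12 rose and 0 fell (median 0.12), with RBM14 at 0.66, FAM98A at 0.54, TAF15 at 0.48 and HNRNPK at 0.45. Of 8 Pumilio and NORAD partners 5 rose and 2 fell: the splicing factor PRPF19 rose by 0.73 and the export adaptor ALYREF by 0.53, and PUM2, which encodes a Pumilio protein, fell by 0.16.

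Of 9 genes that process miR-17-92 or are its known targets, 4 rose and 1 fell, where 29.3% of all genes rose and 29.7% fell. DGCR8 and DROSHA, which cut the primary transcript, rose by 0.43 and 0.14, DICER1 by 0.30 and MYCN, an activator of the cluster, by 0.66. The cell cycle inhibitor CDKN1A, a target, fell by 1.58. Of 9 neighbours and paralogs 3 rose and 3 fell, near those shares. MYC (0.58), OIP5 (0.42) and MORC2 (0.42) rose, and EPB41L1, GPC5 and MIR4435-2HG fell by 0.17, 1.17 and 0.35.

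Of 9 tested pluripotency markers 5 rose and 2 fell, against 29.3% and 29.7% of all genes. Their summed level was 3564 to 3727 CPM at 48 hr and 4069 to 4858 at 96 hr. The 24 hr sets differed in the same sum, at 3860 to 4045 CPM in the first and 3153 to 3276 in the other. Of 3 tested markers of differentiated cells, AFP rose by 3.67 and stayed at or under 2.54 CPM. The summed list was at 201 to 232 CPM at 48 hr and 166 to 225 at 96 hr. That sum is mostly 1 gene, the collagen COL1A1, at 141 to 231 CPM over the treated libraries. The part of these shifts in the members' changes was not tested.

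Levels were also set against every gene with a mean of at least 20 reads, by Pearson r of log2(CPM + 0.5) over the 19 libraries, as a description: the points share library, series and line. The 2 genes most like MALAT1 were ORMDL2 (r = 0.952) and MPDU1 (0.941), and those most like MIR17HG were ERBB2 (0.973) and SFXN5 (0.953). DANCR was most like RAN (0.988) and MKNK2 (0.985), OIP5-AS1 like CMAS (0.982) and PPP1CC (0.977), and the 2 members had an r of 0.920 with each other. CYTOR was most like C19orf70 (0.980) and FAM120A (0.976), and TUG1 like HSP90AA1 (0.968) and KIF21A (0.964). PVT1 had the lowest best match, WASHC4 (0.894), followed by CEP170 (0.881).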

How the data were processed

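The authors deposited, per the file headers and values, raw counts of reads per splice junction for 19 libraries, without normalization. Per the submitters' processing notes, STAR 2.7.1, SAMtools 1.9 and hg38 were named, with no role stated. The authors' 9 deposited comparison tables gave an inclusion difference, a p-value and an adjusted p-value for each event; 69 columns of per-library values there were not used here. Junctions were assigned with GENCODE 29 on GRCh38, using the strand in the files, and a member's level is the sum of annotated junctions of that gene alone. CPM used junction reads without spike-ins. Counts were fitted with edgeR 4.0.16 (R 4.3.3; TMM, filterByExpr, quasi-likelihood F-test, library set plus knockdown) with Benjamini-Hochberg adjustment over all genes or junctions, after the scripts were tested on simulated counts. DESeq2 1.42.0, no block, no low-count filter, added unannotated junctions and leaving out each library were the alternatives.

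The library set is the block in the fits reported: same-set libraries deviated together (median r 0.545 over 18 pairs, 0.304 to 0.749), against a median of -0.17 over 55 pairs of different sets. The set is named by the labels' library series and time. Named junctions were, for each member, the 3 annotated ones with most reads and those past the share rule or a test; likeness named the 2 genes of highest r, and comparators the extremes of the noncoding genes, limited to autosomes after the data were seen. Members and lists were chosen with earlier results of these data known, and values of some listed genes are not reported here. Intervals are exact or Wilson at 95% and cover counting error only; a count of 0 allows 3 reads. Python 3.11.15, pandas 2.3.3, scipy 1.17.1 and matplotlib 3.10.9 were used.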

Additional observations from a re-analysis of the deposited data

Results flagged for a closer look

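In 1 of the 18 groups of 4 libraries that were tested for a library far from the others, a library stood apart, and chance flags about 1 in 20 such groups. NEAT1 in the N-long knockdown was at 0.073 CPM, from 1 read, in the 48 hr library, and at 0 in the other 3 libraries of that knockdown. With 0 reads in the others a single read is enough for the flag, so the rate of 1 in 20 does not hold here.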

How the results depend on the processing

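The library-set block was dropped for the time point alone in 1 alternative. Without this pairing of libraries the members called stayed at 0 in each of the 4 knockdown contrasts, and were 4 instead of 6 at 96 hr against 48 hr, the lost calls being PVT1 and OIP5-AS1; member junctions called in the 5 contrasts were 13 instead of 15. DESeq2 called 4 members and 8 member junctions (the latter chosen after seeing the data). Over all genes, the total knockdown contrast had 300 calls with the block, 62 without it and 241 by DESeq2, and 536 with the wild-type library added to the controls; at 96 hr against 48 hr all junctions had 40055, 30174 and 20469 calls. Leaving out each library gave 4 to 6 members at 96 hr against 48 hr, 0 in the knockdowns, and 12 to 17 junctions; MALAT1, MIR17HG, TUG1 and DANCR stayed called in 8 of 8 such fits, PVT1 in 4 and OIP5-AS1 in 3. Without the low-count filter PVT1 was not called (adjusted p = 0.0526). The 13 junctions whose share differed between fractions were 4 with at least 50 reads at the site and 4 with annotated junctions alone, counts given without a background share. Chosen after seeing the data, leaving out 1 MALAT1 junction moved its log2 nuclear to cytoplasmic ratio from 4.86 to 4.16, and adding shared junctions moved OIP5-AS1 from -2.15 to -1.42 and CYTOR from -1.46 to -1.05. Depth limits NEAT1 and LINC-ROR in HUES66, with at most 2 and 17 reads a library, and MIR17HG in A375 cytoplasmic RNA, with 10.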
